A study of Homo sapiens with 6 samples.

Results

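Coding sequence areas of human genes were examined in footprints of 40S ribosomal subunits from the HEK293T line, which derives from human embryonic kidney, comparing subunits pulled down with an antibody against eIF3b with unselected subunits. A coding sequence (CDS) was included when it held at least 20 counts summed over both libraries, and mitochondrially encoded genes were left out, which gave 2727 of the 9675 genes in the table. The genes were therefore selected on the same counts that form the ratio described here, so the ratio is given as a description with no test. After 48 h of culture at 37 °C the cells received 0.3% formaldehyde for 5 min, RNase I trimmed the RNA in the lysate to footprints, and 40S was separated from 80S. The groups used are 1 library of eIF3b-bound 40S, with a goat polyclonal antibody against eIF3b, and 2 libraries each of unselected 40S and 80S, which had no antibody. All come from the same untreated line and the same fixation. Gene counts were used for the eIF3b-bound library and 40S 1 only, so ratios per gene have no replicate and set these libraries, not the conditions, against each other. The table held 947733 counts of the eIF3b-bound library and 834172 of 40S 1. The CDS areas chosen held 152936 and 186624 of them, which for the eIF3b-bound library was 95.5% of all CDS counts outside the mitochondrial genes. Of 16 markers of other cell types, 5 were in the table, 3 of those had no CDS count, the others held 8 counts in eIF3b-bound 40S and 1 in 40S 1 together, and 0 reached the minimum.

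eIF3 is a multi-subunit initiation factor that binds the 40S subunit, helps to recruit it to mRNA and stays with it during scanning of the 5′ leader. At the start codon the 60S subunit joins, the other factors leave, and the 80S ribosome reads the coding sequence. eIF3 is known to remain on some ribosomes over the first codons, and in yeast and human cells it has a role in reinitiation. A 40S footprint inside a coding sequence can come from a subunit that has not yet been joined by 60S, from scanning past the annotated start, or from an 80S ribosome that came apart. The counts do not tell these apart.

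The ratio per gene was the log2 of counts scaled to the library total (CPM) in eIF3b-bound 40S over the same in 40S 1, with 0.5 added to each count and all genes and areas in the totals. The median coding sequence had a log2 ratio of -0.64, which is 0.642 on the linear scale, with a 95% interval of the median over genes of -0.70 to -0.58. The quartiles lay at -1.49 and 0.27, and the 5th and 95th percentiles at -3.06 and 1.65. Of all 2727 coding sequences, 1883 lay below 0, or 69.1%, and 844 lay above. The sign of the median rests on the scaling, since the median was 0.25 when only CDS counts entered the totals. Positions relative to the median coding sequence do not move with the totals, and a gene was called high or low here when it lay at least 2-fold from that median. That held for 612 genes above (22.4%) and 579 below (21.2%), and these shares are the background over all depths for the gene groups that follow. The share below fell with depth, so for deeply counted groups the class of like depth, given next, is the nearer background. There were 36 coding sequences with 0 counts in eIF3b-bound 40S and 6 with 0 in 40S 1.

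The spread between genes was wider than counting error alone. Among 1132 coding sequences with 20 to 49 counts the SD of the log2 ratio was 1.77, where counting error would give 0.527. Among the 117 with 500 or more counts it was 1.19, where counting error would give 0.103. In that deepest class 20.5% lay at least 2-fold above the median of all coding sequences and 6.84% below. The median moved little with depth, from -0.75 in the class of 20 to 49 counts to -0.54 in the deepest. At the minimum itself, 56 genes with exactly 19 counts had a median of -0.77 and 52 genes with exactly 20 had -0.74. How far the wider spread is technical was not tested, as there is no second eIF3b-bound library.

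**Figure D1:**
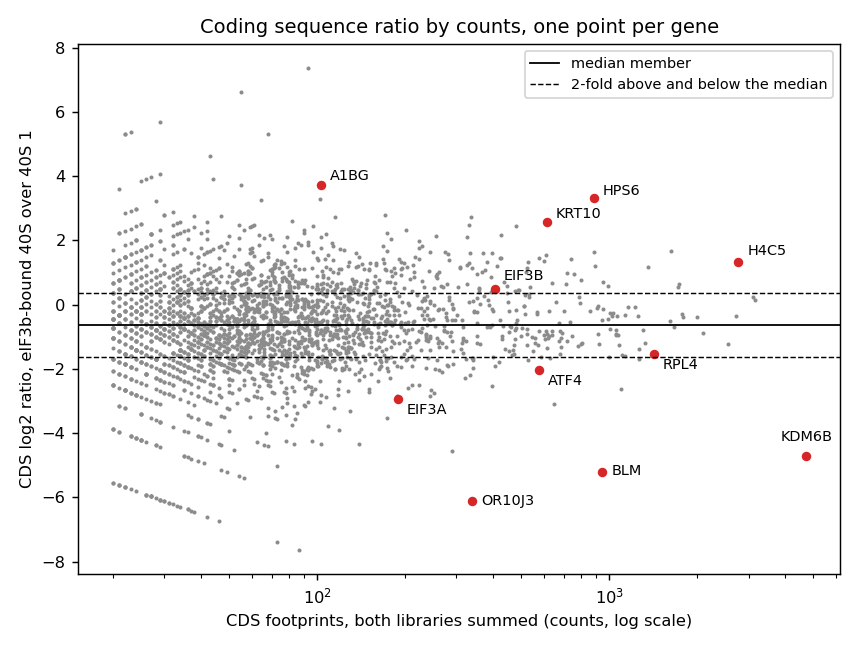
Log2 ratio of the CDS area (y axis) against CDS counts summed over both libraries (x axis, log scale) for 2727 genes, with the median (solid line, -0.64) and 2-fold above and below it (dashed). KDM6B, BLM and OR10J3 lie far below and HPS6 and KRT10 far above genes of similar depth, while diagonal rows at the left are genes with 0 or few counts in a library.

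The start codon areas of the same genes went the other way. At least 20 start area counts were available for 1279 of the coding sequences; 1095 others had 1 to 19 and 353 had none. In these 1279 genes the median log2 ratio was 1.22 at the start area and -0.57 in the CDS. The difference within a gene, CDS minus start area, does not depend on library totals or on the amount of mRNA, and its median was -1.73 with a 95% interval over genes of -1.82 to -1.65. This is 0.302 on the linear scale. The CDS ratio was below the start ratio in 1152 genes (90.1%), above in 126 and equal in 1. At least 2-fold below stood 934 genes (73%), and at least 2-fold above stood 30 (2.35%).

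The same shift can be read from the counts per library. In the eIF3b-bound library these genes held 112239 CDS counts and 160032 start area counts, or 0.701 CDS counts for each count at the start. In 40S 1 they held 132699 and 65106, or 2.04 for each. For the median gene there were 0.829 CDS counts per start count in eIF3b-bound 40S and 2.81 in 40S 1. The pooled CDS content relative to the start in eIF3b-bound 40S was thus 0.344 of that in unselected 40S.

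Across genes the CDS ratio hardly followed the start ratio. Over the 1279 genes, which share the libraries and their totals, Pearson's r was 0.044 and Spearman's rho 0.039, given as a description. In 338 genes with at least 100 counts in each area rho was 0.136, and the CDS lay below the start in 325 of them. When genes were put in 4 groups of like size by their start ratio, the median start ratio ran from 0.24 in the lowest group to 2.35 in the highest, whereas the median CDS ratio was -0.76, -0.45, -0.59 and -0.56. The start ratio itself enters the difference, so the difference ran from -0.92 to -3.07 over the same groups.

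**Figure D2:**
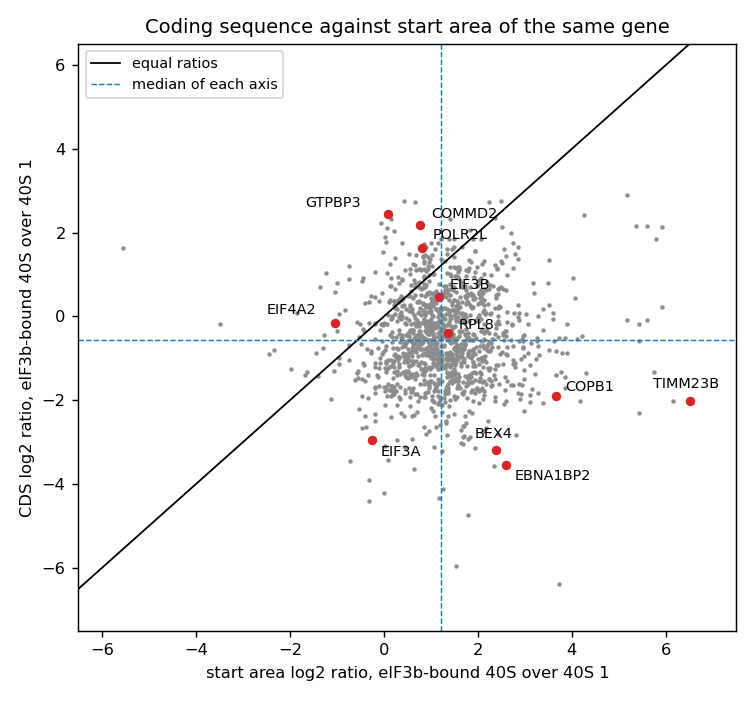
Log2 ratio of the CDS area (y axis) against that of the start area (x axis) for 1279 genes with at least 20 counts in each, with the line of equal ratios (solid) and the median of each axis (dashed). Most points lie below the line (1152 genes) and the cloud has no slope; GTPBP3, COMMD2, POLR2L and EIF4A2 lie above the line.

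Set among 4 areas of the mRNA, coding sequences stood between the start codon and the 3′ UTR. In 856 genes with at least 20 counts in each of 4 areas, the median log2 ratio was 2.34 in the leader, 1.21 at the start, -0.71 in the CDS and -1.09 in the 3′ UTR. The full order of leader, start, CDS and 3′ UTR held within 360 of these genes (42.1%). The step from start to CDS was the most uniform, with the start above the CDS in 796 genes, against 715 with the leader above the start and 488 with the CDS above the 3′ UTR. Taken over all genes with enough counts, the CDS ratio was below the leader in 1724 of 1767 genes and below the 3′ UTR in 684 of 2036. It showed no relation to the leader (rho -0.029) and a weak one to the 3′ UTR (rho 0.265, and 0.320 in the 400 genes with at least 100 counts in each). In the 150 genes with a measurable stop codon area, its median ratio was -1.26 against -0.70 in their CDS. The CDS ratio was below the stop area ratio in 36 of these genes, and rho was 0.429. These are correlations across genes of 2 libraries and carry no test.

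Genes against the trend were looked for among 677 with a symbol and at least 50 counts in each of both areas. GTPBP3, an enzyme of mitochondrial tRNA modification (chr19:17334982-17342731, GRCh38), had the largest difference. It held 412 CDS counts in eIF3b-bound 40S and 66 in 40S 1, but 29 and 24 at the start. Its log2 ratios were 2.45 and 0.08, and the difference of 2.37 had a 95% counting interval of 1.43 to 3.29. COMMD2, a subunit of the Commander complex in endosomal recycling, had 90 and 17 CDS counts beside 47 and 24 at the start, a difference of 1.42 with an interval of 0.32 to 2.56. POLR2L, a small subunit shared by the RNA polymerases, was the most deeply counted of these genes, with 692 and 197 CDS counts and 487 and 245 at the start, and its difference of 0.82 had an interval of 0.50 to 1.15. It had no leader count in either library.

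In the other genes at this end counting error reached 0. EIF4A2, an RNA helicase of the eIF4F complex, had 61 and 60 CDS counts beside 23 and 42 at the start (difference 0.88, interval -0.06 to 1.86). Its start area ratio of -1.04 was far below the median of 1.22, while its CDS ratio was -0.16. TMEM141 had 106 and 33 CDS counts beside 38 and 23 at the start (difference 0.96, interval -0.06 to 1.96). FUNDC1, a receptor of mitophagy, had 67 and 17 beside 35 and 15 (difference 0.75, interval -0.53 to 2.03).

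The 126 genes whose CDS ratio exceeded their start ratio had a median CDS ratio of 1.00 and a median start ratio of 0.32, against -0.70 and 1.32 in the other 1153. Choosing genes by the difference fixes part of this. They had fewer start counts (median 37 against 63) at nearly the same CDS counts (104 against 102). Of what the choice did not use directly, their genomic span was shorter (median 10904 against 16357.5 bases) and 19.05% had no leader count against 9.19%. The 3′ UTR ratio was higher, at -0.57 in 101 genes against -1.21 in 997. Each of these traits also went with the CDS ratio across genes, and the choice did use that ratio.

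At the opposite end were genes whose start area was rich in eIF3b-bound 40S and whose CDS was not. EBNA1BP2, a ribosome biogenesis factor, had 92 start counts in eIF3b-bound 40S and 13 in 40S 1, but 7 and 77 in the CDS. The difference was -6.15 (interval -7.88 to -4.78). BEX4 had 44 and 7 at the start beside 8 and 68 in the CDS (difference -5.58, interval -7.52 to -4.03). Both were high at the start and low in the CDS.

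COPB1, a coatomer subunit of Golgi vesicles, had 64 and 4 start counts beside 19 and 64 in the CDS, a difference of -5.57. RPA1, the large subunit of the single-stranded DNA binding protein RPA, had 72 and 10 beside 21 and 76, a difference of -4.62. DDIT4, a stress-induced inhibitor of mTORC1, had 47 and 4 beside 19 and 44, a difference of -4.59. Their intervals reached up to -4.03, -3.43 and -3.00. TIMM23B, of the mitochondrial import machinery, had 51 and 0 start counts beside 12 and 44 in the CDS. With a floor of 3 counts per library its start was 15.0-fold higher in the eIF3b-bound library, which leaves out counting error. TIMM23B is a near-identical copy of TIMM23, which had 44 and 7 at the start and 95 and 61 in the CDS, and reads between them may have been split, so its value is uncertain.

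Among the 806 coding sequences with at least 100 counts, the 10 lowest ratios included genes that were counted almost solely in their CDS in 40S 1. KDM6B, a histone H3 demethylase (chr17:7834217-7854796), had the most CDS counts of them all, with 196 in eIF3b-bound 40S and 4516 in 40S 1, and its log2 ratio was -4.71 (interval -4.92 to -4.50). The CDS made up 99.7% of that gene's counts in 40S 1, with 2 counts at the start and 3 in the leader. BLM, a RecQ helicase (chr15:90717346-90816166), had 28 and 919 CDS counts, a ratio of -5.20, and 99.1% of its counts in 40S 1 were in the CDS. The table gives no positions within a CDS, so whether such counts are spread along it or lie at a single site was not measured, here and in the genes that follow.

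OR10J3, an olfactory receptor gene, had 5 and 334 CDS counts, a ratio of -6.11, and no count in any other area of either library. N4BP3 had 13 and 277 (-4.55), AMIGO2, a cell adhesion protein, 5 and 98 (-4.35), and FLNC, an actin cross-linking filamin, 7 and 132 (-4.33). CETN1, a centrin, had 8 and 101 (-3.76), KANSL1, of a histone acetyltransferase complex, 15 and 158 (-3.54), and PNISR 13 and 117 (-3.31). In 5 of the 10 the start area was empty in both libraries, against 28 of all 806 (3.47%). EIF2A, an initiator tRNA binding factor distinct from eIF2, was the only gene of the 10 with at least 20 start counts. Among all 806 this share was 81.6%. EIF2A had 30 and 33 counts at the start and 8 and 111 in the CDS, a ratio of -3.90 and a difference of -3.58 (interval -5.11 to -2.31).

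The 10 highest ratios also included genes with few counts outside the CDS. HPS6, a subunit of a lysosome-related organelle complex encoded by a single coding exon (chr10:102065349-102068036), had 815 and 72 CDS counts, a ratio of 3.31 (interval 2.97 to 3.68). KRT10, a keratin of differentiated epidermis, had 533 and 78 (2.58), with no count in its leader or start area. MESP1, a transcription factor of early mesoderm, had 286 and 45 (2.47), and 98.96% of its counts in the eIF3b-bound library lay in the CDS.

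A1BG, a plasma glycoprotein, had 97 and 6 CDS counts (3.72), and CFD, complement factor D, had 94 and 8 (3.29), both without leader or start counts. HOXB6 had 152 and 19 (2.78), and SDF2L1, an ER chaperone cofactor, had 298 and 39 (2.73) with a start ratio of 2.24 beside it. FDX2, a mitochondrial ferredoxin, had 102 and 13 (2.74), and CCDC167 had 172 and 30 (2.32). GTPBP3, described above, completed this group. The start area was empty in 4 of the 10 genes and held at least 20 counts in 4, against 3.47% and 81.6% of all 806.

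Genes without leader counts tended to high CDS ratios as a class. The 416 coding sequences with no leader count in either library had a median of -0.14, and 35.3% of them lay at least 2-fold above the median of all coding sequences while 12.3% lay below. In the 2311 with leader counts the median was -0.75 and the shares were 20.1% and 22.8%. Genes without leader counts had slightly fewer CDS counts (median 53 against 61) and a shorter genomic span (median 16793.5 against 24732 bases). The 130 genes with no leader count but at least 20 start counts had a median of -0.11 and a median of 115.5 CDS counts. The 353 genes with no start count had a median of -0.65, close to that of all. Whether a missing or short leader annotation goes with these values was not tested.

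Coding sequences of the translation machinery lay mostly below the median. Ribosomal proteins of the cytosol had 32 measured coding sequences of 79 listed, with a median of -1.09 and a narrow range of quartiles, -1.31 to -0.68. Of the 32, 0 were called high and 5 low. These are deeply counted genes (median 587 counts), for which the shares in the class of 500 or more counts are the nearer background. That class includes many of these genes themselves, so it is not independent of them. RPL4 had 398 and 1026 CDS counts (-1.55), RPL13 347 and 730 (-1.26) and RPL8 922 and 1069 (-0.40). All 32 had a CDS ratio below their start ratio, with a median difference of -1.75, close to that of all genes. Ribosomal proteins have many processed pseudogenes, so their counts are uncertain.

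eIF3 itself was represented by 8 subunits or subunit copies, with a median of -0.78, 1 called high and 1 low. EIF3B, the subunit targeted by the antibody, was the high one, with 248 CDS counts in eIF3b-bound 40S and 157 in 40S 1, a ratio of 0.47 (interval 0.18 to 0.77). Its start area had 70 and 27 counts, a ratio of 1.17. EIF3A, the large scaffold subunit, was the low one, with 24 and 165 CDS counts, a ratio of -2.94 (interval -3.65 to -2.34), and 35 and 37 at the start. Between them lay EIF3I (-0.21), EIF3M (-0.67), EIF3G and EIF3H (both -0.78), EIF3C (-1.14) and EIF3CL (-1.15), the last pair being near-identical copies. All 8 had a CDS ratio below their start ratio. The intervals of EIF3B and EIF3A do not overlap each other. These are the highest and lowest of the 8, and the intervals cover counting error only.

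Other initiation factors numbered 16, with a median of -1.01, 2 high and 5 low. EIF6, which keeps free 60S subunits from joining, had 182 and 79 (1.01), EIF4EBP1, the inhibitor of eIF4E, 94 and 86 (-0.06), EIF4H 108 and 120 (-0.34), and EIF5A, which also acts in elongation, 197 and 328 (-0.92). Of the 13 elongation and termination factors listed 3 were measured. EEF1G had 308 and 824 (-1.60) and EEF1B2 53 and 183 (-1.96). PELO, a ribosome rescue factor, had 0 and 27 CDS counts, beside 24 and 7 at the start. With a floor of 3 counts its CDS was 10.2-fold lower in the eIF3b-bound library, which leaves out counting error. The counting interval of its CDS log2 ratio reached up to -2.96. The 9 aminoacyl-tRNA synthetases had a median of -0.80 and none was called; QARS1 had 83 and 63 (0.21), FARSB 131 and 112 (0.04) and EPRS1 58 and 92 (-0.85). Relative to all coding sequences their median was -0.16, but 0.55 with a minimum of 100 counts.

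RNA-binding splicing proteins of the hnRNP and SR families were the lowest of the larger lists, with a median of -1.32 over 22 genes, 1 high and 3 low. HNRNPA1 had 189 and 421 CDS counts (-1.34) and HNRNPD 157 and 427 (-1.62), both short of a call, and SRSF9 was the high one with 646 and 249 (1.19). Their starts were not low: the median difference was -2.65 in the 19 with a start ratio, and in HNRNPD the start held 181 and 32 counts.

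Chaperones (19 genes) had a median of -1.05, with 0 high and 3 low. The most deeply counted were not called: HSP90AB1 had 247 and 536 (-1.30), NACA 305 and 804 (-1.58), and the near-identical pair HSPA1A and HSPA1B had 396 and 660 (-0.92) and 394 and 665 (-0.94). Glycolytic enzymes (8 genes) had a median of -1.11, with 0 high and 1 low; GAPDH had 383 and 882 (-1.39), ENO1 302 and 622 (-1.23), LDHB 397 and 671 (-0.94) and TPI1 250 and 385 (-0.81). Cytoskeletal genes (20) had a median of -0.90, with 3 high and 4 low, and beside the high KRT10 stood ACTB with 326 and 937 (-1.71), TUBB with 231 and 442 (-1.12) and ACTG1 with 521 and 789 (-0.78). Proteasome genes (17) sat at the median of all, -0.65, with 0 high and 2 low. Chaperones and glycolytic enzymes had medians of 454 and 553.5 CDS counts, so the classes of like depth are their nearer background.

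Replication and cell cycle genes (21) had a median of -1.08, with 3 high and 5 low. PLK1, a mitotic kinase, had 133 and 61 CDS counts (0.93), MCM7, of the replicative helicase, 110 and 131 (-0.44), TOP2A, a topoisomerase, 45 and 138 (-1.79), and CDC25A, a phosphatase that activates cyclin-dependent kinases, 37 and 138 (-2.07). ER and secretory genes (21) had a median of -0.60 with 3 high and 6 low; SDF2L1 was the highest, the lowest ratio was -2.55, and SEC61B of the translocon was low with 38 and 128 (-1.92). Solute carriers (32) had a median of -1.05, with 4 high and 11 low (34.4%), and ZNF zinc finger genes (40) a median of -1.02, with 8 high and 11 low (27.5%). Both families were thinly counted, with medians of 44.5 and 43 counts. With a minimum of 100 counts only ZNF503, ZNF703 and ZNF358 remain in the ZNF list, and its median then lay 1.36 above that of all coding sequences instead of below.

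Nuclear genes of mitochondrial function differed among themselves. The 35 mitochondrial ribosomal proteins had a median of -0.07, with 10 high (28.6%) and 0 low. MRPL40 had 244 and 88 (1.28), MRPL18 256 and 112 (1.00), MRPS15 168 and 101 (0.55) and MRPL3 219 and 138 (0.48). Oxidative phosphorylation, with 31 nuclear genes measured, gave a median of -0.54, with 6 high and 3 low. The 4 with the most counts were all subunits of ATP synthase. ATP5MC2 with 523 and 237 (0.96), ATP5F1E with 530 and 273 (0.77) and ATP5ME with 452 and 257 (0.63) were high, whereas the catalytic subunit ATP5F1B had 237 and 399 (-0.93). Other ATP synthase subunits, picked after their values were seen, were not high, such as ATP5MC3 with 191 and 233 (-0.47) and ATP5PD with 78 and 101 (-0.55).

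Core histones, whose coding sequences are short and without introns, had a median of -0.08 over 47 genes, with 14 high (29.8%) and 0 low. With a median of 607 CDS counts, the class of 500 or more counts is their nearer background. That class includes many of these histones themselves, so it is not independent of them. H4C5 had 2049 and 719 CDS counts (1.33), H4C15 1773 and 1330 (0.23), H4C14 1763 and 1389 (0.16) and H3C14 834 and 958 (-0.38). Linker and variant histones (10) were lower, with a median of -0.85, 2 high and 0 low, and included H1-2 with 1277 and 1437 (-0.35) and H1-4 with 835 and 1719 (-1.23). H4C14, H4C15, H1-2 and H1-4 were the 4 genes with the most CDS counts among those with at least 50 start counts. At the start H1-4 had 229 and 42 counts and H1-2 206 and 30, so the differences were -3.47 and -2.93. Among core histones the median difference was -1.51 in 28 genes, with -0.32 in H4C15, -1.33 in H4C14 and -2.18 in H3C14. Histone genes share long stretches of sequence, and the values of single copies are uncertain.

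Smaller groups were mixed. Immediate early genes and small transcription factors (13) had a median of -0.44, with 3 high and 2 low, and JUN had 32 and 62 (-1.13). Selenoproteins (8), which recode a UGA stop codon, had a median of -0.26, with 2 high and 0 low; SELENOW had 106 and 30 (1.62) and SELENOM 79 and 34 (1.02). OAZ1, which is read with a programmed frameshift, had 621 and 368 (0.57). LDOC1, listed beside it although no frameshift was measured for it here, had 20 and 9 (0.93, interval -0.23 to 2.29). The 4 measured genes with regulatory upstream open reading frames lay at a median of -1.27, with 0 high and 1 low. The low one was ATF4, the transcription factor of the integrated stress response, with 124 and 450 CDS counts (-2.04, interval -2.34 to -1.75) and 24 and 9 at the start. AZIN1 had 27 and 60 (-1.32) and IBTK 28 and 58 (-1.22). Genes with a single coding exon (28) had a median of -0.69, with 6 high and 2 low. In 5 genes reported for co-translational assembly the median was -1.39, with 0 high and 2 low. DCTN1, a dynactin subunit, had 11 and 82 (-3.03), the proteasome ATPase PSMC1 25 and 90 (-2.01), and TAF10, a subunit of TFIID, 47 and 58 (-0.49).

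**Figure D3:**
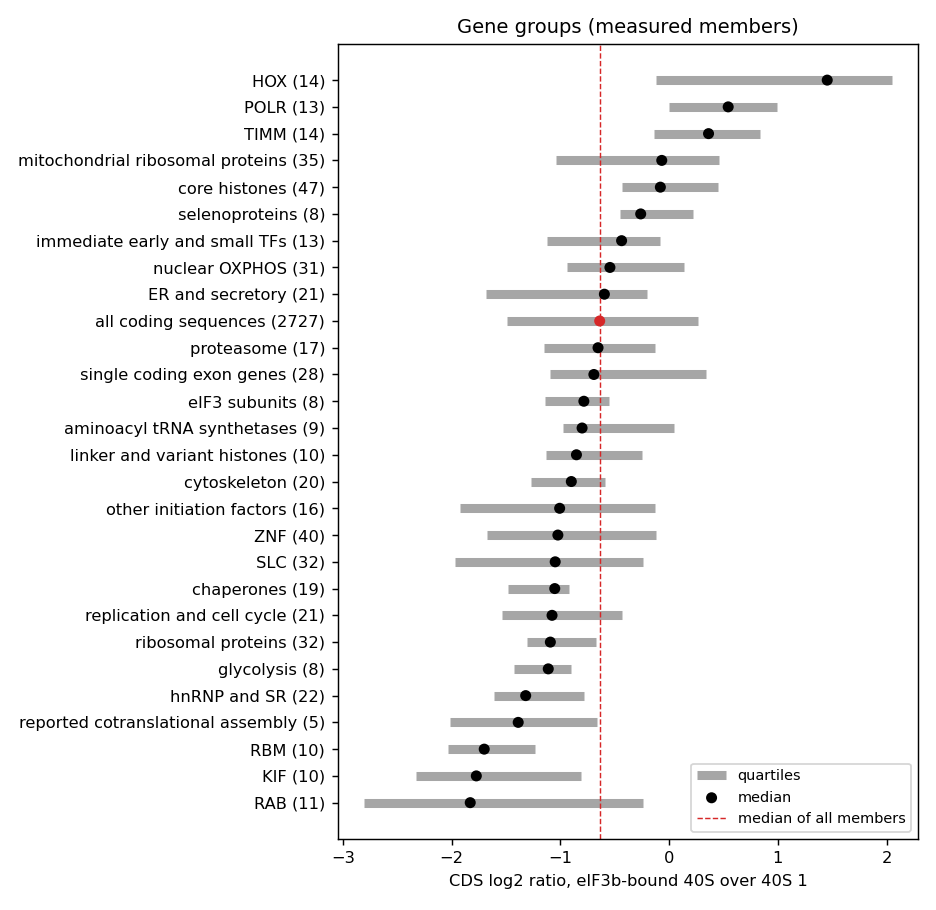
Median (points) and quartiles (bars) of the CDS log2 ratio (x axis) for gene groups with at least 5 measured genes, the number in brackets, and for all 2727 coding sequences (red, dashed line at -0.64). Core histones and mitochondrial ribosomal proteins lie at -0.08 and -0.07 and hnRNP and SR genes at -1.32; HOX, POLR, TIMM, KIF, RAB and RBM were picked after their values were seen.

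Long genes had lower CDS ratios. The genomic span from RefSeq (GRCh38.p14), which includes introns and is not the length of the coding sequence, was found for 2667 of the genes. In 125 genes under 2 kb the median ratio was -0.09, with 37.6% high and 7.2% low. In 466 genes of 10 to 20 kb it was -0.60, and in 305 genes of 100 kb or more it was -1.34, with 14.8% high and 39.02% low. The rank correlation across genes was -0.307, and -0.284 in the 790 with at least 100 counts, so it was not confined to thinly counted genes, although CDS counts also fell with span (rho -0.239).

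The other areas differed in this relation. Span showed rho 0.018 with the leader ratio, -0.007 with the start ratio and -0.424 with the 3′ UTR ratio. The difference between CDS and start had rho -0.153, with medians of -1.48 in genes under 2 kb, -2.04 in genes of 50 to 100 kb and -1.85 in genes of 100 kb or more. Without histones, ribosomal proteins, tubulins, actins and HSPA1A and HSPA1B the CDS value was -0.312. Reads from introns or from unspliced RNA, and the length of the coding sequence itself, were not measured, and their part in this relation was not tested.

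**Figure D4:**
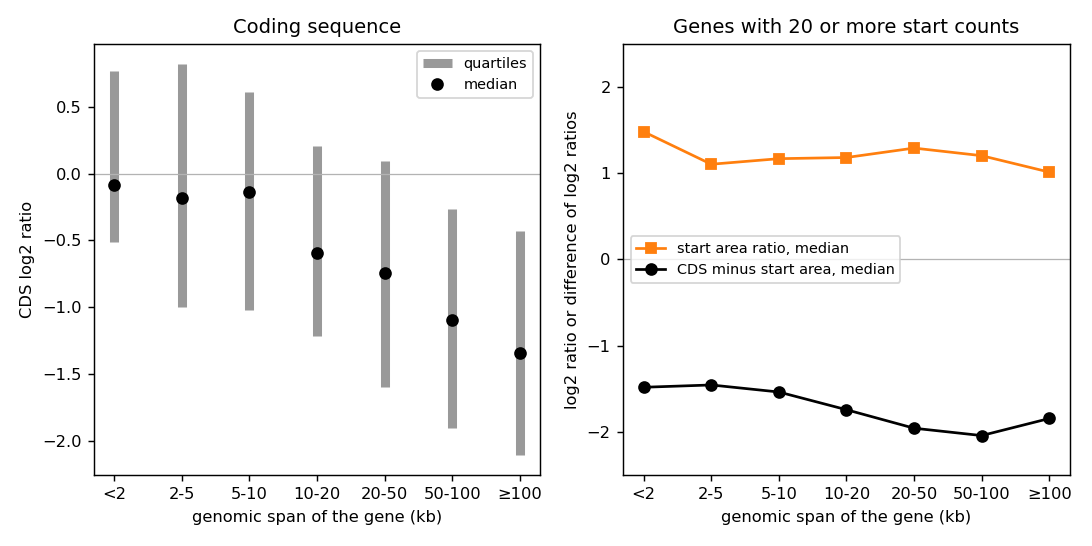
Left, median (points) and quartiles (bars) of the CDS log2 ratio by genomic span of the gene in kb; right, medians of the start area ratio (squares) and of the CDS minus start difference (circles) in genes with at least 20 start counts. The CDS median goes from -0.09 to -1.34 with span while the start median stays between 1.01 and 1.48.

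Where within coding sequences unselected 40S footprints lie was read from the metagene counts of 5′ ends, which do not include the eIF3b-bound library. From 11 to 30 nt after the start codon 40S 1 had 854.15 5′ ends per position and 40S 2 had 341.1, against 370.1 and 120.9 from 80 to 61 nt before the stop codon. The early density was thus 2.31 times the late one in 40S 1 and 2.82 times in 40S 2. In 80S 1 and 80S 2 the same quotient was 0.952 and 0.697. The mean was 2.56 ± 0.363 (SD, n = 2) for 40S and 0.825 ± 0.180 (SD, n = 2) for 80S, and the groups did not overlap. The p of an exact permutation test, two-sided, was 0.333, which is the smallest possible with 2 libraries against 2. The 40S and 80S libraries of the same number may share a lysate, and the test did not use such a pairing. Windows of 30 nt after the start and 50 nt before the stop gave 2.38 and 3.34 for 40S and 0.870 and 0.618 for 80S. The windows were set after the profiles were seen, and the sources do not say whether the same genes entered the start and stop profiles.

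**Figure D5:**
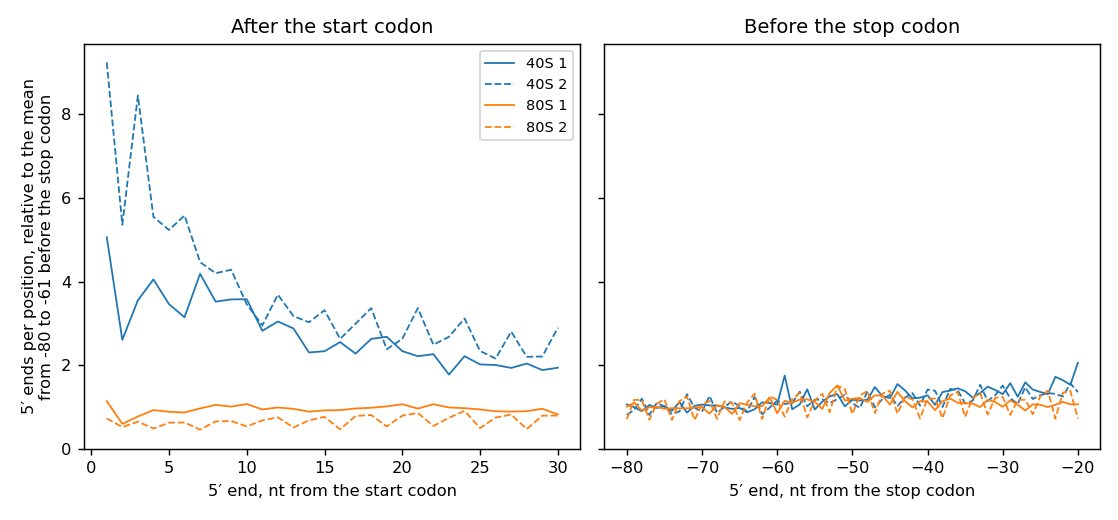
5′ ends per position after the start codon (left) and before the stop codon (right), divided by each library's mean from 80 to 61 nt before the stop codon, for 40S (blue) and 80S (orange), libraries 1 (solid) and 2 (dashed). Both 40S libraries decline after the start codon and remain above the late level at 30 nt, while both 80S libraries stay near or below it.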

How the data were processed

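The authors deposited whole-number counts of footprints for each gene, split per the file headers into 5 areas from 5′ UTR to 3′ UTR, in eIF3b-bound 40S and 40S 1, and counts of 5′ ends around start and stop codons for 2 libraries each of 40S and 80S. The submitters' processing notes name GRCh38 and the tools TopHat2 2.1.0, Bowtie2 2.2.6, Bowtie 1.2.2 and CASAVA 1.8. Not given in the sources used here are the tools' roles, the borders of the areas, strand use and how reads with several matches were counted. Per the labels, only read 1 of the number 1 libraries, sequenced as paired ends, was analysed. Columns left unmapped numbered 0.

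Ratios were computed in Python 3.11.15 (numpy 2.4.6, scipy 1.17.1, pandas 2.3.3) on the log2 scale from CPM (prior count 0.5). Intervals of single genes are exact (Clopper-Pearson, or conditional odds ratio for CDS minus start) at 95% and cover only counting error; without molecular identifiers, reads cannot be taken as independent molecules. Intervals of medians are order-statistic intervals over genes, which are not independent replicates. A symbol was found for 2688 of the 2727 coding sequences and none for 39. The members and the 22 lists (SLC and ZNF by symbol) were chosen with earlier results of these data known. Named genes are the 10 highest and 10 lowest ratios with at least 100 counts, the 6 genes at each end of CDS minus start with at least 50 counts in both areas and the 4 of these with the most counts, ATF4, the eIF3 subunits, and up to 4 genes with the most counts per list; not all are printed. The planned comparison with protein length was not run, as protein sequences were not used here, and genomic span was added instead. The median, the 2-fold calls and the intervals of single CDS ratios were tested on simulated CDS counts with counting error only. The CDS minus start difference, the relation with span and the 5′ end quotients were not tested in this way. Separate cultures are not named in the labels for libraries 1 and 2 of 40S and 80S, and their spread may be technical.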

Additional observations from a re-analysis of the deposited data

How the results depend on the processing

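The level of the median CDS ratio followed the scaling. It was -1.10 with totals without the 10 genes highest in 40S 1, -0.77 without mitochondrial genes and -0.89 with median-of-ratios factors, and reversed to 0.25 with totals of CDS counts only. These leave positions relative to the median, counts of called genes and CDS minus start as they are. Changing the minimum from 20 to 50 CDS counts gave a median of -0.56 with 336 genes high and 306 low, and a minimum of 100, chosen after seeing the data, gave -0.51 with 170 and 140, because fewer genes remain. With no minimum beyond 1 count the median was -0.76, with 1545 high and 1579 low, and rho with genomic span -0.19. Without genes that had no leader count, also chosen after seeing the data, the median was -0.75. The median of CDS minus start was -1.63 with a prior count of 2 and -1.59 with a minimum of 100 CDS counts. The share of genes with the CDS below the start was 94.7% with at least 50 start counts and 88.0% with at least 10. A minimum of 10 CDS counts gave 825 high and 804 low and rho -0.26 with span. That setting, a prior count of 0.1, and leaving out listed near-identical families (histones, ribosomal proteins, tubulins, actins, HSPA1A and HSPA1B, but not TIMM23B, EIF3C or EIF3CL), genes without a symbol, or genes with over 90% of counts in the CDS moved no count over 1.5 times, no rho by over 0.1, and no median or share out of its 95% interval. Of 123 named genes 0 that were called high or low reversed under any of these settings that kept them. A setting kept as few as 104 of them. Relative to the median, 3 named genes left their counting interval with no minimum beyond 1 count. This held for 6 with a minimum of 100 counts and for 2 without genes that had no leader count. With a minimum of 100 counts the list medians relative to all coding sequences turned to 1.36 for ZNF and 0.55 for aminoacyl-tRNA synthetases. Ratios per gene rest on 1 library a group. No paired analysis was possible because gene counts were used for only 1 library in each group. Protein length was not run.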

Other observations

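Families that share the first letters of their symbol and hold at least 10 measured coding sequences, and HOX genes over all their clusters, were looked through after the values were seen, so the following are descriptions of chosen families with no test. Symbols that begin with FAM, which share no single function, also had a high median, 0.66 over 17 genes with 9 high and 2 low. HOX genes, homeodomain transcription factors of body patterning, had the highest median shown, 1.45 over 14 genes. Of them 9 were high (64.3%) and 1 low (7.14%), against a background of 22.4% and 21.2%. They were thinly counted, with a median of 46.5 counts, and the class of 20 to 49 counts had 22.3% high and 26.8% low. Some high members reached the minimum almost solely through the eIF3b-bound library, such as HOXA6 with 25 and 1 and HOXB4 with 29 and 4. HOXB9 had 288 CDS counts in eIF3b-bound 40S and 83 in 40S 1, HOXB2 76 and 17, HOXC9 55 and 11, and HOXA3 went the other way with 4 and 17. Only 1 of the 14 had at least 20 start counts, so the CDS could not be set against the start in this family. POLR subunits of the RNA polymerases had a median of 0.54 over 13 genes, with 8 high and 0 low, from POLR3K with 215 and 60 to POLR2B, the second largest subunit of polymerase II, with 23 and 54. TIMM proteins of mitochondrial import had a median of 0.36 over 14 genes, with 7 high and 1 low, and TIMM50 had 170 and 72.

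At the low end, RAB GTPases of vesicle transport had a median of -1.83 over 11 genes, with 1 high and 6 low. The family was thinly counted, with a median of 36 counts. In the class of 20 to 49 counts 22.3% were high and 26.8% low. RAB10 had 15 and 48 CDS counts and RAB18 16 and 59, while RAB1A had 50 and 39 and RAB7A 48 and 52 (-0.30). KIF motor proteins had a median of -1.77 over 10 genes, with 2 high and 6 low; KIF11 had 10 and 69 and KIF5B 37 and 109, whereas KIF1A had 61 and 23. RBM RNA-binding proteins had a median of -1.70 over 10 genes, with 2 high and 5 low; RBM12 had 39 and 135 and RBM8A 38 and 120. The median genomic span was 65760.5 bases for KIF, 38079 for RAB and 14415.5 for RBM, against 3481.5 for HOX, 9469 for POLR and 5620 for TIMM and 23783 for all coding sequences. Median CDS counts were 36 for RAB, 50.5 for KIF and 71 for RBM. They were 46.5 for HOX, 77 for POLR and 82.5 for TIMM, against 60 for all coding sequences. The part of span or of depth in these family medians was not tested.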
